A study of Mus musculus with 12 samples.

Results

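The Hox cluster genes encode homeodomain transcription factors and lie in 4 clusters. They were taken as every row of the gene expression table whose symbol is Hoxa, Hoxb, Hoxc or Hoxd followed by a number. That gave 40 of 54537 rows and 39 symbols, because Hoxd4 is listed under 2 overlapping gene identifiers (ENSMUSG00000101174 and ENSMUSG00000115956) between which its reads can be split. The Hoxa cluster had 11 rows on chromosome 6 of GRCm38. The Hoxb cluster had 10 rows on chromosome 11, from 96194316 to 96368256. The Hoxc cluster had 9 rows on chromosome 15, from 102921103 to 103036852, and the Hoxd cluster had 10 rows on chromosome 2, from 74668310 to 74765142.

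The study concerns knockouts of long noncoding RNAs in mouse embryonic stem (ES) cells, and its title ties the small nucleolar RNA SNORA73 to leaving pluripotency. RNA with poly(A) tails was sequenced from a line with the genotype label WT+1343KO-a14, called 1343KO here, and from wild type cells (WT). Day 0 cells grew on gelatin in serum with leukaemia inhibitory factor, which keeps ES cells undifferentiated. Days 8 and 16 are floating aggregates, embryoid bodies, grown in serum without that factor. Each of the 6 groups (1343KO at days 0, 8 and 16, and WT at the same days) had 2 libraries. All samples carry the cell type label of ES cells. The 1343KO line is 1 clone going by its label, and nothing says what its number stands for or whether the leading WT+ is a parental line.

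Position numbers 1 to 13 give a gene's place in its cluster, and genes with the same number in different clusters descend from 1 ancestral gene. In vertebrate embryos low-numbered genes are switched on earlier and farther forward along the body axis, and high-numbered genes later and farther back. Retinoic acid, Wnt and FGF signals and the Cdx factors start this order, and Polycomb proteins keep the clusters silent in ES cells. Pbx and Meis proteins bind DNA together with Hox proteins.

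Snhg3, the noncoding host gene of mouse Snora73, was listed at 0 to 1.57 FPKM in the 6 1343KO libraries, against 8.31 to 61.1 FPKM in the 6 WT libraries. FPKM are fragment counts scaled to transcript length and to the depth of the library. The Y-linked gene Eif2s3y was at 0.198 to 1.28 FPKM in 1343KO libraries, against 13.8 to 24 FPKM in WT libraries. Tested genes on chromosome 8 had a median log2 difference of -0.32 at day 0, and those on chromosomes 2, 6, 11 and 15, which hold the Hox clusters, had medians of 0.01, 0, 0 and -0.02. Depth, estimated from the smallest FPKM steps, was about 4877000 to 8067000 fragments per library. At the median depth 1 FPKM of a Hox gene stood for 4.42 to 20.8 fragments, so values under 1 FPKM rest on few fragments and replicates of such genes differ widely.

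A gene was tested where at least 2 libraries reached 1 FPKM, which held for 16289 genes and 25 of the 40 Hox rows. The 25 comprised 7 in Hoxa, 7 in Hoxb, 5 in Hoxc and 6 in Hoxd. Of these, 17 passed only through the WT libraries of days 8 and 16, since fewer than 2 of the other 8 libraries reached 1 FPKM, and 12 of the 17 reached it in no other library. Those 17 could hardly do other than rise in WT and be lower in 1343KO, so counts and medians over the 25 are descriptions. The other 8 pass without these WT libraries and are counted beside them. Each of these 8 reached 1 FPKM in at least 1 library of day 0. High day 0 values thus helped them pass, which favours a fall over a rise from day 0. The second-highest value of a gene decided whether it passed: it was 1.3 FPKM for Hoxd11 and 1.36 FPKM for Hoxd10, just inside, and 0.92 FPKM for Hoxb9 and 0.852 FPKM for Hoxa3, just outside. A gene was called at an adjusted p under 0.05 in a limma fit over all tested genes, with FPKM + 1 taken to log2; adding 1 shrinks the changes of low genes.

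In WT the Hox genes went from few and low at day 0 to many at days 8 and 16, and in 1343KO they stayed low on all 3 days. Summed over the 40 rows, 1343KO libraries held 16.9 and 16.6 FPKM at day 0, 8.95 and 9.44 at day 8, and 12.7 and 11.7 at day 16. Sums in WT libraries were 20.1 and 21.4 FPKM at day 0, 90.1 and 91.7 at day 8, and 100.6 and 100.8 at day 16. The mean sum in 1343KO was 80.7% of that in WT at day 0, 10.1% at day 8 and 12.1% at day 16. In both libraries of a group, 2, 0 and 2 rows reached 1 FPKM in 1343KO at days 0, 8 and 16, against 4, 18 and 21 rows in WT. In embryoid bodies of mixed cells, fewer cells that express a gene and less RNA of it per cell cannot be told apart.

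**Figure D1:**
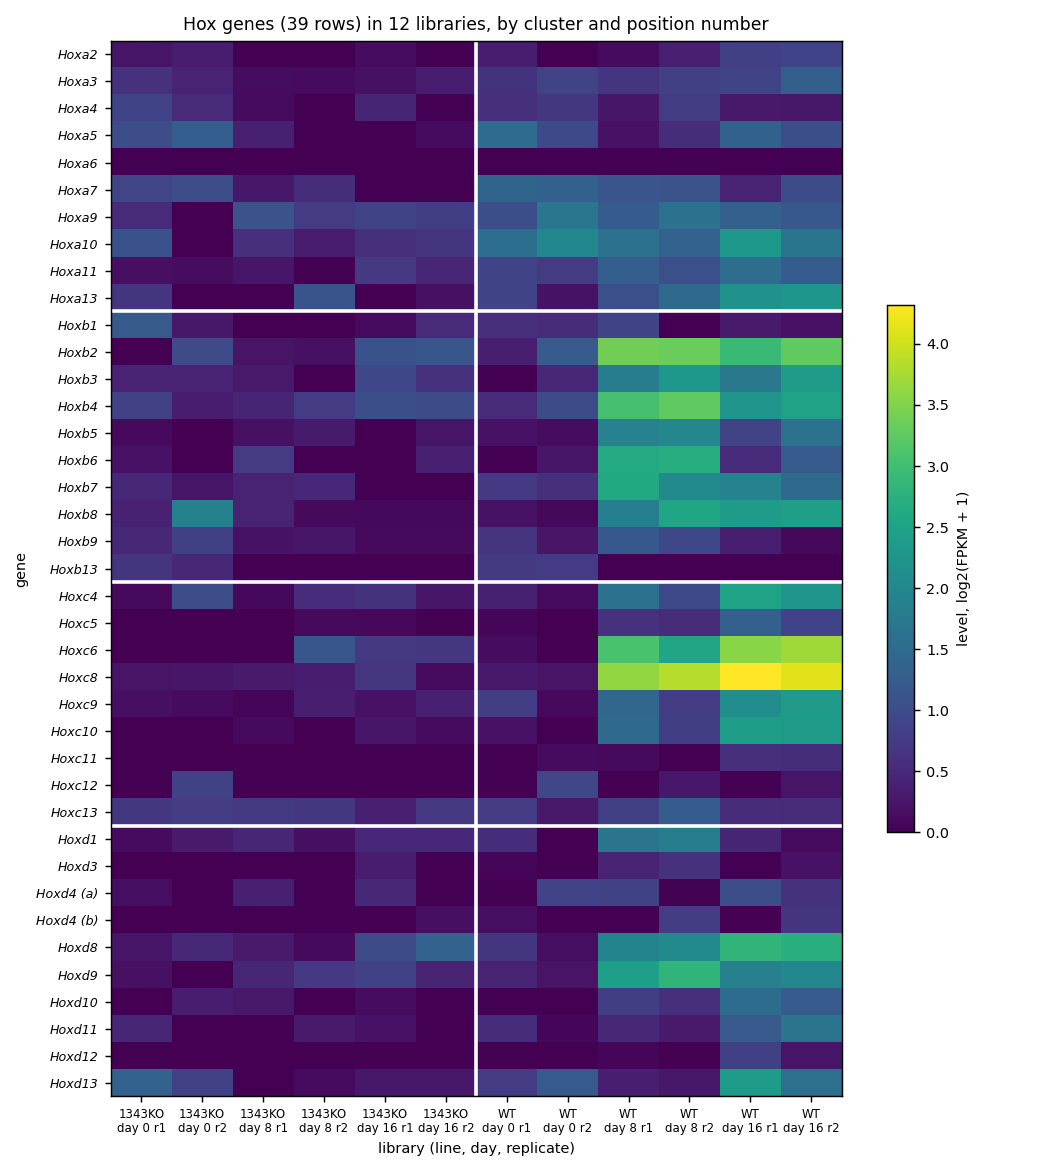
Level of 39 of the 40 Hox rows as log2(FPKM + 1) in every library, by cluster and position number, with 1343KO libraries left of the WT libraries; Hoxd4 (a) and (b) are its 2 identifiers. Bright cells stand in the WT columns of days 8 and 16, mostly in Hoxb, Hoxc and Hoxd, with Hoxc8 brightest at 19 FPKM.

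The clusters followed different courses. Hoxb sums in 1343KO were 4.43 and 5.89 FPKM at day 0, 2.46 and 1.76 at day 8, and 3.31 and 3.81 at day 16. The WT sums were 3.43 and 4.94 FPKM at day 0, 37.0 and 39.1 at day 8, and 21.4 and 27.3 at day 16, so the WT sum was highest at day 8. Hoxc sums in 1343KO were 1.02 and 2.80 FPKM at day 0, 1.103 and 2.93 at day 8, and 2.50 and 1.91 at day 16. Those in WT were 2.27 and 1.56 FPKM at day 0, 25.7 and 22.8 at day 8, and 44.5 and 42.2 at day 16, highest at day 16.

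Hoxd sums lay at 1.18 to 3.33 FPKM over the 6 1343KO libraries. The WT sums were 2.73 and 2.50 FPKM at day 0, 12.1 and 13.96 at day 8, and 18.3 and 15.7 at day 16. Hoxa changed least in WT, with 11.6 and 12.4 FPKM at day 0, 15.3 and 15.9 at day 8, and 16.4 and 15.7 at day 16. Hoxa sums in 1343KO were 8.96 and 6.26 FPKM at day 0, 3.85 and 3.57 at day 8, and 3.54 and 3.38 at day 16, below every WT library of the same day. Hoxa held 53.1% and 37.6% of the summed Hox level in 1343KO at day 0, and 58.0% in each WT library of day 0.

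**Figure D2:**
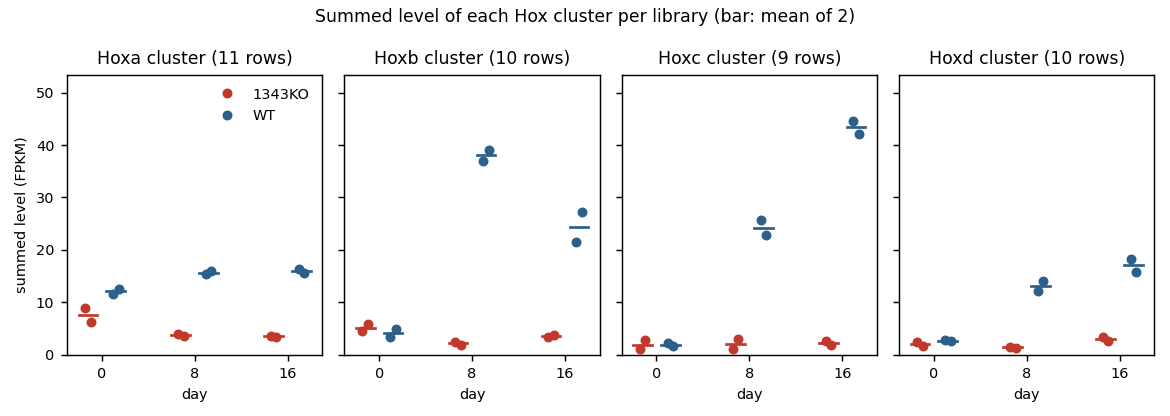
Summed level (FPKM) of the rows of each Hox cluster against day, with a point per library and a bar at the mean of 2; 1343KO is red and left of WT in blue. Lines lie close together at day 0 except in Hoxa; at days 8 and 16 every WT point lies above every 1343KO point of its cluster.

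In WT embryoid bodies of day 8, the 6 tested genes of positions 1 to 4 and the 7 tested genes of Hoxb were up relative to day 0. Of the 25 tested Hox genes 16 rose and 1 fell, and 51.3% of all genes tested were called in this comparison, 26.8% as higher. Of the 8 Hox genes that pass the filter without WT libraries of days 8 and 16, 3 rose and 1 fell, a share near that of all genes. High day 0 values helped these 8 pass, so the 2 shares are not a neutral comparison. The median log2 change was 1.19 over the tested Hox genes and 0 over all genes. By position, 6 of 6 tested genes of positions 1 to 4 rose, 7 of 9 of positions 5 to 8 rose with 1 falling, and 3 of 10 of positions 9 to 13 rose. Positions 1 to 4 hold 13 rows, and in a fit with no filter Hoxd3 was called higher among those below it, while Hoxa2, Hoxa3, Hoxa4, Hoxb1 and both Hoxd4 rows were not called.

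Hoxc8, which patterns thoracic vertebrae and spinal motor neurons, had the largest rise. Its WT level was 0.221 and 0.169 FPKM at day 0, 11.3 and 13.4 at day 8, and 19.0 and 16.4 at day 16. The log2 change to day 8 was 3.48 ± 0.21 (SE, adjusted p = 1.48e-06), with no overlap between the days.

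Hoxc6, a gene of the forelimb and upper thoracic level, was at 0.0988 and 0 FPKM in WT at day 0, 7.45 and 4.92 at day 8, and 10.8 and 12.01 at day 16 (log2 change to day 8 2.75 ± 0.34, adjusted p = 0.000116). Hoxb2, which patterns the hindbrain and its facial motor neurons, was at 0.286 and 1.35 FPKM in WT at day 0, 9.40 and 9.09 at day 8, and 6.65 and 8.62 at day 16 (2.56 ± 0.36, adjusted p = 0.000257). Hoxb4, known for its effect on blood progenitors, was at 0.446 and 1.00 FPKM in WT at day 0, 7.24 and 8.59 at day 8, and 3.74 and 4.65 at day 16 (2.38 ± 0.25, adjusted p = 4.17e-05). For each of these genes both day 8 libraries exceeded both day 0 libraries.

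Hoxb3, Hoxb5, Hoxb6, Hoxb7 and Hoxb8 rose too, by 1.70 to 2.53 on the log2 scale. Hoxb6, a gene of lateral mesoderm and trunk, reached 5.21 and 5.46 FPKM at day 8 where the day 0 libraries had 0 and 0.196. In Hoxd, Hoxd1, Hoxd8, Hoxd9 and Hoxd10 rose, with Hoxd9 at 0.344 and 0.177 FPKM in WT at day 0, 4.45 and 6.08 at day 8, and 2.70 and 3.06 at day 16 (change to day 8 2.30 ± 0.23, adjusted p = 2.94e-05).

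Hoxa5, needed for the lung and the neck, fell to 0.160 and 0.479 FPKM in WT at day 8, against 1.84 and 0.929 FPKM in WT at day 0 (-0.84 ± 0.26, adjusted p = 0.0239), and this call was lost without WT day 0 replicate 1 or WT day 8 replicate 1 and with a pseudocount of 0.1. The rises of Hoxc4 (1.02 ± 0.35) and Hoxd10 (0.69 ± 0.22) were lost without any 1 of 3 WT libraries of the 2 days. Hoxa7, Hoxa9, Hoxa10, Hoxa11, Hoxa13, Hoxc9, Hoxd11 and Hoxd13 did not pass, with log2 changes of -0.68 to 0.73.

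The bases before the start of 3 Hoxb genes are given because Hoxb4 and Hoxb8 rose in WT while Hoxb1, at the end of the same cluster, stayed below 1 FPKM in every WT library. The windows run 250 bases upstream on the forward strand of GRCm38.p6, from RefSeq. They are chr11:96365508-96365757 for Hoxb1, chr11:96318017-96318266 for Hoxb4 and chr11:96281655-96281904 for Hoxb8. Capitals mark matches, on either strand, to TTTATG (bound by Cdx factors), TGATNNAT (bound by Pbx and Hox proteins together) or AGGTCA (the half-site of retinoic acid receptors).
Hoxb1: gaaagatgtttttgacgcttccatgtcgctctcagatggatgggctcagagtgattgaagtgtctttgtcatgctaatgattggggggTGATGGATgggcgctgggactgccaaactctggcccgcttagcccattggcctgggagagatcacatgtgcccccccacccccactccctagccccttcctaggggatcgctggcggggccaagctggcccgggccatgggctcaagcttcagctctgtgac
Hoxb4: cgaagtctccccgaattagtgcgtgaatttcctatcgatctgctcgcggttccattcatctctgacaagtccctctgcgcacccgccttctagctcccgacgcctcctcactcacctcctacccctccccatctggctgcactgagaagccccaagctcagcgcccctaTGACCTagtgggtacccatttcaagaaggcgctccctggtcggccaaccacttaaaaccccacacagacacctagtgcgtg
Hoxb8: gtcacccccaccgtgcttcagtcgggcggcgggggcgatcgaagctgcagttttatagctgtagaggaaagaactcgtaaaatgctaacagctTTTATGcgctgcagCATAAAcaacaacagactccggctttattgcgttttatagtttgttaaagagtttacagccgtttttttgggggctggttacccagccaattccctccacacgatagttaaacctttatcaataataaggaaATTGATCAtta

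Hoxb1 had 1 match to TGATNNAT, Hoxb4 had 1 match to AGGTCA on the reverse strand, and Hoxb8 had 2 matches to TTTATG and 1 to TGATNNAT. Upstream of Hoxb1 lies a well-studied enhancer through which Hox and Pbx proteins act on Hoxb1 in the mouse hindbrain. Windows were available for 22 of the 39 Hox symbols, 24 in all with alternative starts. TTTATG was found in 20.8% of the 24 (5 windows) and in 10.8% of all 32851 windows, TGATNNAT in 16.7% (4) and 7.68%, and AGGTCA in 25% (6) and 14%. A direct repeat of AGGTCA with 5 bases between the copies was in 0 of the 24 and in 0.00913% of all windows. The 24 windows had a median of 12.5 CG dinucleotides, against 6 over all windows. These are matches of letters only, and overlapping alternative starts of 1 gene share bases.

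Between days 8 and 16 the balance in WT moved towards high position numbers. Of the 25 tested Hox genes 7 rose and 4 fell, and 27.6% of all genes tested were called, 14.1% as higher and 13.5% as lower. Among the 8 genes that pass without these WT libraries, 1 rose and 2 fell. Positions 1 to 4 had 1 riser and 3 that fell among 6, positions 5 to 8 had 1 and 1 among 9, and positions 9 to 13 had 5 and 0 among 10. Hoxd10 and Hoxd11 reached 1 FPKM only in WT libraries of day 16, and Hoxd1 only in WT libraries of day 8. Their direction here was nearly fixed by the filter, and they are in these counts and in the correlations below. Across the 25 genes Spearman's rho between position number and log2 change was 0.59, and within clusters it was 0.607 in Hoxa, 0.0357 in Hoxb, 0.60 in Hoxc and 0.829 in Hoxd (7, 7, 5 and 6 genes). The same rho for the change to day 8 was -0.472. These values describe genes that share clusters, libraries and reads of overlapping transcripts, and both changes use the day 8 libraries.

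Hoxd13, which shapes digits and the urogenital tract, rose after day 8. It was at 0.694 and 1.34 FPKM in WT at day 0, 0.287 and 0.207 at day 8, and 4.15 and 2.005 at day 16 (log2 change from day 8 1.66 ± 0.30, adjusted p = 0.00294). Hoxc10, a gene of the lumbar level, was at 0.157 and 0 FPKM in WT at day 0, 1.80 and 0.751 at day 8, and 4.33 and 4.09 at day 16 (1.23 ± 0.24, adjusted p = 0.0044). In each case both day 16 libraries exceeded all 4 earlier WT libraries. Hoxc9 (1.12 ± 0.29), Hoxc4 (1.09 ± 0.35), Hoxd11 (1.04 ± 0.27), Hoxd8 (0.77 ± 0.23) and Hoxd10 (0.69 ± 0.22) rose as well.

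Hoxb6 fell to 0.422 and 1.34 FPKM in WT at day 16 (-1.79 ± 0.32, adjusted p = 0.0028). Hoxd1, known in mouse for its part in pain-sensing neurons, was at 0.486 and 0 FPKM in WT at day 0, 2.18 and 2.51 at day 8, and 0.364 and 0.0878 at day 16 (-1.46 ± 0.24, adjusted p = 0.00206). Hoxb4 fell by 0.78 ± 0.25 (adjusted p = 0.0449). Of the 11 calls 3 held under every alternative, and with a pseudocount of 0.1 there were 3 calls in all. The count was 6 without WT day 8 replicate 2 or without WT day 16 replicate 1, and 7 without WT day 8 replicate 1.

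**Figure D3:**
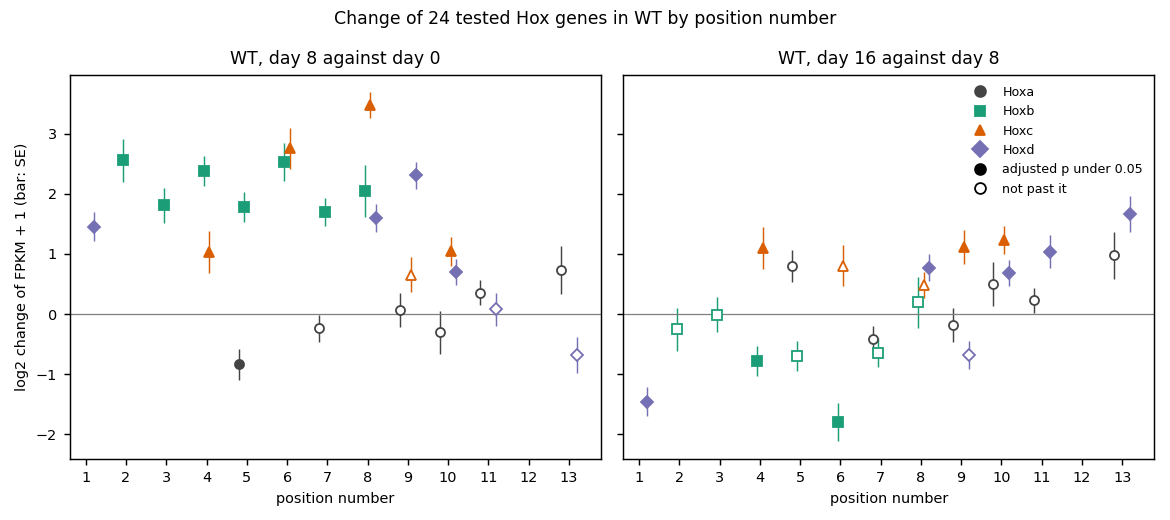
Log2 change of FPKM + 1 of 24 of the 25 tested Hox genes in WT against position number, for day 8 against day 0 (left) and day 16 against day 8 (right), with SE bars, a symbol per cluster and filled symbols at an adjusted p under 0.05. The 5 plotted genes of positions 1 to 4 lie above 0 on the left; on the right 4 of those 5 lie below 0, and 8 of the 10 genes of positions 9 to 13 lie above it.

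Over the whole course, from day 0 to day 16, 18 of the 25 tested Hox genes rose in WT and Hoxa7 fell, where 61.2% of all genes tested were called and 32.7% rose. Of the 8 genes that pass the filter without WT libraries of days 8 and 16, 3 rose and 1 fell, again near the share of all genes. The same limit holds, since high day 0 values helped these 8 pass. Hoxc8 (3.96 ± 0.21), Hoxc6 (3.56 ± 0.34) and Hoxd8 (2.37 ± 0.23) changed most. All 5 tested Hoxc genes, 6 of 7 in Hoxb and 5 of 6 in Hoxd rose, while in Hoxa 2 did, Hoxa11 and Hoxa13. Without WT day 0 replicate 1 or WT day 16 replicate 1, Hoxa7, Hoxa11 and Hoxd13 were not called, and without WT day 0 replicate 2 Hoxa7 and Hoxa11 were not. Hoxa13, the paralogue of Hoxd13 in the hand plate and hindgut, was at 0.823 and 0.157 FPKM in WT at day 0, 1.08 and 1.80 at day 8, and 3.67 and 3.82 at day 16 (1.71 ± 0.39, adjusted p = 0.00409). By mean level in WT at day 16 the order was Hoxc8 (17.7 ± 1.84 FPKM, SD, n = 2), Hoxc6 (11.4 ± 0.884), Hoxb2 (7.63 ± 1.40) and Hoxd8 (5.85 ± 0.337), and ranges of the last pair did not overlap. Hoxb8, Hoxc10, Hoxc4 and Hoxb4 followed at 4.20 to 4.29 FPKM and did not differ beyond their spread.

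At day 0, before differentiation, no Hox gene was called between 1343KO and WT, where 3.71% of all genes tested were called by limma, 1.59% as higher and 2.12% as lower; 4 of the 25 had an unadjusted p under 0.05. Without 1343KO day 0 replicate 1 there were 2 calls. Hoxa10, a gene of the lumbar level and the uterus, was at 1.12 and 0 FPKM in 1343KO, against 1.95 and 3.06 FPKM in WT (log2 change -1.25 ± 0.36, adjusted p = 0.104). Hoxa9, known in blood stem cells, was at 0.453 and 0 FPKM in 1343KO, against 1.05 and 2.25 FPKM in WT (-1.10 ± 0.29, adjusted p = 0.0761). Neither pair of groups overlapped, and the shallow depth leaves such differences uncertain.

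At day 8 Hox genes of all 4 clusters were lower in 1343KO. Of the 25 tested, 18 were lower and none higher, where 42.8% of all genes tested were called, 19.6% as lower and 23.3% as higher. The median log2 difference was -1.42 over the tested Hox genes and 0.06 over all genes. All 7 tested genes in Hoxb, 4 of 5 in Hoxc, 4 of 7 in Hoxa and 3 of 6 in Hoxd were lower. Of the 8 Hox genes that pass the filter without the WT libraries of days 8 and 16, 5 were lower.

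Hoxc8 was at 0.246 and 0.249 FPKM in 1343KO at day 8, against 11.3 and 13.4 FPKM in WT (log2 change -3.41 ± 0.21, adjusted p = 3.02e-06). Hoxb2 was at 0.177 and 0.147 FPKM in 1343KO, against 9.40 and 9.09 FPKM in WT (-3.14 ± 0.36, adjusted p = 0.00011). Hoxb4 was at 0.365 and 0.691 FPKM in 1343KO, against 7.24 and 8.59 FPKM in WT (-2.55 ± 0.25, adjusted p = 4.61e-05). In each gene both WT libraries lay above both 1343KO libraries.

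Hoxb6 was at 0.690 and 0 FPKM in 1343KO at day 8, against 5.21 and 5.46 FPKM in WT (-2.28 ± 0.32). Hoxc6 was at 0 and 1.22 FPKM in 1343KO, against 7.45 and 4.92 FPKM in WT (-2.25 ± 0.34). Hoxd9 was at 0.386 and 0.639 FPKM in 1343KO, against 4.45 and 6.08 FPKM in WT (-2.04 ± 0.23). The groups did not overlap in any of these.

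Other calls at day 8 included Hoxa7, Hoxa10, Hoxa11, Hoxb3, Hoxb5, Hoxb7, Hoxb8, Hoxc9, Hoxc10, Hoxd1 and Hoxd8, with log2 differences of -1.94 to -0.71. The call of Hoxa7 was lost without 1343KO day 8 replicate 1 or either WT library of day 8, that of Hoxc9 without either 1343KO library of day 8 or WT day 8 replicate 1, and that of Hoxa10 without any 1 of 8 libraries. Hoxc10 was lost with the 4 libraries of day 8 alone, and the other 14 of the 18 held under every alternative. Hoxa5, Hoxa9, Hoxa13, Hoxc4, Hoxd10, Hoxd11 and Hoxd13 did not pass, at -0.96 to -0.20; in WT, Hoxa9, Hoxa13, Hoxd11 and Hoxd13 had not changed beyond the threshold by day 8 either.

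**Figure D4:**
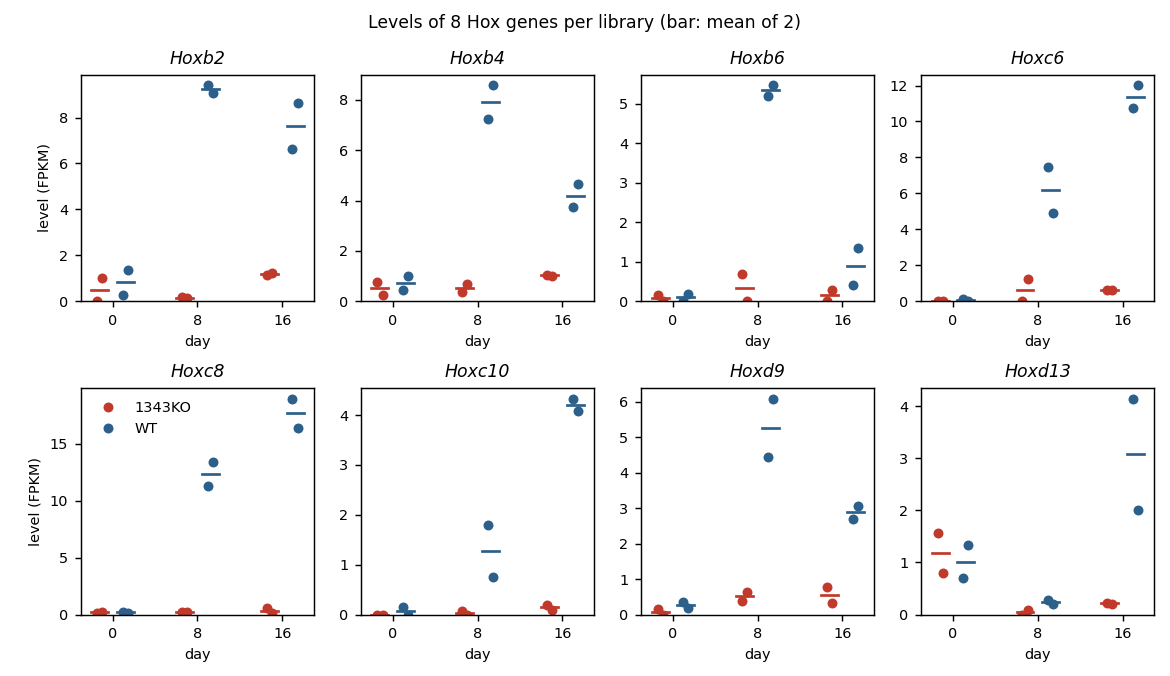
Level (FPKM) of 8 Hox genes against day, with a point per library and a bar at the mean of 2; 1343KO is red and left of WT in blue. Hoxb4, Hoxb6 and Hoxd9 peak in WT at day 8, Hoxc6, Hoxc8, Hoxc10 and Hoxd13 are highest in WT at day 16, and 1343KO stays at or below 1.22 FPKM apart from the day 0 points of Hoxd13.

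At day 16, 22 of the 25 tested Hox genes were lower in 1343KO and none was higher, where 52.6% of all genes tested were called, 24.1% as lower and 28.5% as higher. The median log2 difference was -1.35 over the tested Hox genes and 0.07 over all genes. All 5 tested genes in Hoxc, 6 of 7 in Hoxa, 6 of 7 in Hoxb and 5 of 6 in Hoxd were lower, as were 7 of the 8 genes that pass the filter without the WT libraries of days 8 and 16. Hoxa9, Hoxb6 and Hoxd1 did not pass.

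Hoxc8 was at 0.612 and 0.097 FPKM in 1343KO at day 16, against 19.0 and 16.4 FPKM in WT (log2 change -3.81 ± 0.21, adjusted p = 8.32e-07). Hoxc6 was at 0.641 and 0.607 FPKM in 1343KO, against 10.8 and 12.01 FPKM in WT (-2.93 ± 0.34, adjusted p = 7.49e-05). Hoxb8, a gene of the spinal cord and of myeloid cells, was at 0.0685 and 0.0654 FPKM in 1343KO, against 4.17 and 4.40 FPKM in WT (-2.31 ± 0.42, adjusted p = 0.00139). These 3 differences were the largest at this day.

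High-numbered genes were among the lower ones at day 16. Hoxc10 was at 0.199 and 0.0946 FPKM in 1343KO, against 4.33 and 4.09 FPKM in WT (-2.18 ± 0.24). Hoxa13 was at 0 and 0.146 FPKM in 1343KO, against 3.67 and 3.82 FPKM in WT (-2.15 ± 0.39). Hoxd13 was at 0.220 and 0.210 FPKM in 1343KO, against 4.15 and 2.005 FPKM in WT (-1.69 ± 0.30). No libraries of the lines overlapped in these 3 genes.

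Hoxb2 and Hoxb4 were the 2 Hox rows at or above 1 FPKM in both 1343KO libraries of day 16; Hoxd8 missed that by 1 library, at 0.9996 FPKM. Hoxb2 was at 1.12 and 1.22 FPKM in 1343KO, against 6.65 and 8.62 FPKM in WT (-1.98 ± 0.36). Hoxb4 was at 1.06 and 1.01 FPKM in 1343KO, against 3.74 and 4.65 FPKM in WT (-1.35 ± 0.25). Of the 22 calls 16 held under every alternative. Hoxa7 was lost without either 1343KO library of day 16 or WT day 16 replicate 2, Hoxa10 without WT day 16 replicate 1 and Hoxa11 without 1343KO day 16 replicate 2. Hoxb3 was lost with a pseudocount of 0.1 and Hoxb5 with the 4 libraries of day 16 alone.

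Within the 1343KO line few Hox genes changed with time. From day 0 to day 8, 3 fell and none rose, where 23.5% of all genes tested were called, 15.0% as higher and 8.51% as lower. All 3 are among the 8 genes that pass the filter without WT libraries of days 8 and 16. High day 0 values helped those 8 pass, which favours a fall. Hoxa5 was at 1.03 and 1.45 FPKM in 1343KO at day 0, 0.299 and 0 at day 8, and 0 and 0.0965 at day 16 (log2 change to day 8 -0.97 ± 0.26, adjusted p = 0.0266). Hoxd13 was at 1.56 and 0.788 FPKM in 1343KO at day 0, 0 and 0.0897 at day 8, and 0.220 and 0.210 at day 16 (-1.04 ± 0.30, adjusted p = 0.0332). Without 1343KO day 8 replicate 2 none of the 3 was called, without 1343KO day 0 replicate 1 only 1.

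Between days 8 and 16 no Hox gene was called in 1343KO by limma, with 2 of 25 at an unadjusted p under 0.05, and 0.804% of all genes tested were called. From day 0 to day 16, 1 Hox gene, Hoxd8, rose and 3 fell in 1343KO, Hoxa5 and Hoxa7 among them, where 26.8% of all genes tested were called, 18.2% as higher and 8.6% as lower. The 3 that fell are again among the 8 genes that high day 0 values helped to pass. Hoxd8 was at 0.186 and 0.392 FPKM in 1343KO at day 0, 0.242 and 0.0839 at day 8, and 0.9996 and 1.55 at day 16 (log2 change to day 16 0.81 ± 0.23, adjusted p = 0.0282). The count of 4 was 1 without 1343KO day 0 replicate 2 or 1343KO day 16 replicate 1, 2 without 1343KO day 16 replicate 2, and 7 with a pseudocount of 0.1.

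The change over time itself differed between the lines. For the change to day 8 the difference passed in 13 of 25 Hox genes, all with the lower value in 1343KO, where 28.3% of all genes tested were called and 12.7% in that direction. It passed in 3 of the 8 genes that pass the filter without WT libraries of days 8 and 16, and 7 of the 13 calls held under every alternative. All 7 tested Hoxb genes, 3 in Hoxd and 2 in Hoxc were among them, and by position they were 5 of 6, 7 of 9 and 1 of 10. Hoxc8 differed by -3.40 ± 0.30 (adjusted p = 7.14e-05), Hoxb8 by -2.93 ± 0.60 (adjusted p = 0.00627) and Hoxb2 by -2.84 ± 0.50 (adjusted p = 0.00299). The difference for Hoxb8 rests in part on 1343KO day 0 replicate 2, which had 2.74 FPKM where replicate 1 had 0.322.

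For the change to day 16 the difference passed in 19 of 25, all in the same direction, where 40.0% of all genes tested were called and 18.2% in that direction. It passed in 5 of those 8 genes, and 7 of the 19 calls held under every alternative. By position they were 5 of 6, 7 of 9 and 7 of 10. Hoxc8 (-3.80 ± 0.30, adjusted p = 1.82e-05), Hoxb8 (-3.30 ± 0.60, adjusted p = 0.00213) and Hoxc6 (-2.86 ± 0.48, adjusted p = 0.00134) differed most. The value of Hoxb8 again rests in part on the 2.74 FPKM of 1343KO day 0 replicate 2. The count of 19 was 8 with a pseudocount of 0.1, 11 without 1343KO day 0 replicate 1 or 1343KO day 16 replicate 2, and 10 without WT day 16 replicate 2, and the count of 13 at day 8 was 7 with that pseudocount. These comparisons share libraries with those above.

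The 15 rows that did not pass the filter were Hoxa2, Hoxa3, Hoxa4, Hoxa6, Hoxb1, Hoxb9, Hoxb13, Hoxc5, Hoxc11, Hoxc12, Hoxc13, Hoxd3, both rows of Hoxd4, and Hoxd12. Hoxa6 was listed at 0 in all 12 libraries. A fit with no filter held the other 14, and in it 4 of them were called lower in 1343KO at day 8 (Hoxa3, Hoxb9, Hoxc5 and Hoxd3) and 5 at day 16 (Hoxa2, Hoxa3, Hoxc5, Hoxc11 and Hoxd12), with none higher. In that fit 11.4% and 15.4% of all 27528 genes were called lower at days 8 and 16. Hoxc5 spans Hoxc6, Hoxc8, Hoxc9 and Hoxc10 in the annotation, and Hoxa3 spans Hoxa4, Hoxa5 and Hoxa6, so reads of those genes can be assigned to them.

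Hoxb13, known from the tail and the prostate, ran the other way from its cluster in WT. It was at 0.571 and 0.401 FPKM in 1343KO at day 0 and at 0.663 and 0.683 FPKM in WT at day 0, and was listed at 0 in all 8 libraries of days 8 and 16. In the fit with no filter it fell by 0.57 ± 0.06 to day 8 in 1343KO (adjusted p = 0.000929) and by 0.74 ± 0.06 in WT (adjusted p = 5.8e-05). The 8 libraries at 0 have no spread, so this SE says little about replicates, and the day 0 values rest on few fragments. Hoxb9, of the thoracic level, was at 0.156 and 0.199 FPKM in 1343KO at day 8, against 1.28 and 0.919 FPKM in WT. Hoxb1 was at 0 and 0 FPKM in 1343KO at day 8, against 0.827 and 0 FPKM in WT, so its groups overlapped.

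Noncoding RNAs and neighbours of the clusters were measured in the same fit. Halr1, a long noncoding RNA at the Hoxa cluster, was at 96.2 and 85.8 FPKM in 1343KO at day 0, 7.62 and 2.58 at day 8, and 13.8 and 10.2 at day 16. Its WT levels were 51.9 and 71.8 FPKM at day 0, 0.613 and 0 at day 8, and 1.32 and 1.91 at day 16. It was higher in 1343KO at day 8 (log2 change 2.13 ± 0.39, adjusted p = 0.00189) and day 16 (2.31 ± 0.39, adjusted p = 0.000834), while Hoxa sums were lower there.

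Hoxa11os, antisense to Hoxa11, was at 0 FPKM or nearly so in 1343KO at day 16, against 2.77 and 4.08 FPKM in WT (-2.13 ± 0.24, adjusted p = 5.73e-05). Whether the authors' counting used strand is not given in the sources used here, so its reads and those of Hoxa11 may not be told apart. Of a list of 17 named noncoding RNAs in or beside the clusters, 6 were tested, and 1 was higher and 2 were lower in 1343KO at each of days 8 and 16. Of all 46 rows within the clusters that are not Hox genes, 9 were tested, and 2 were lower in 1343KO at day 8 (Hoxa11os and Haglr) and 3 at day 16 (Hoxa11os, Hoxd3os1 and Gm27861), with 0 higher. Over all genes tested, 19.6% were lower and 23.3% higher at day 8, and 24.1% and 28.5% at day 16. Outside the clusters, the nearest protein-coding genes did not move as 1. Ttll6, beside Hoxb13, encodes a tubulin-modifying enzyme and was higher in 1343KO (1.90 ± 0.22 at day 8 and 1.31 ± 0.22 at day 16), Calcoco1, beside Hoxc13, was lower (-0.39 ± 0.13 and -0.54 ± 0.13), and Mtx2, beside Hoxd1, did not pass (-0.02 ± 0.17 and -0.07 ± 0.17).

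Genes that act with or on the Hox clusters were counted from lists, to be read against the 19.6% of all genes tested that were lower and 23.3% higher in 1343KO at day 8, and 24.1% and 28.5% at day 16. Among 9 tested cofactors of the Pbx, Meis and Pknox families, 1 was higher and 4 were lower in 1343KO at day 8, and 1 and 3 at day 16. In either direction 42.8% and 52.6% of all genes were called at these days. More of this list was lower than higher, unlike all genes, and with so few genes this was not tested. Meis1, a partner of Hox proteins in blood and limb, was at 4.11 and 2.80 FPKM in 1343KO at day 16, against 13.95 and 11.03 FPKM in WT (-1.61 ± 0.23, adjusted p = 0.000326). Cdx2, a direct activator of central Hox genes, was at 1.81 and 1.60 FPKM in 1343KO at day 8, against 12.8 and 16.2 FPKM in WT (-2.51 ± 0.28, adjusted p = 9.33e-05).

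Among 16 tested genes of the retinoic acid pathway, 1 was higher and 4 were lower in 1343KO at day 8, and 2 and 7 at day 16. Of all genes, 23.3% were higher and 19.6% lower at day 8, and 28.5% and 24.1% at day 16. More of the list was lower than higher, unlike all genes, and with so few genes this was not tested. Dhrs3, an enzyme that limits retinoic acid, was at 3.02 and 4.38 FPKM in 1343KO at day 16, against 16.9 and 22.4 FPKM in WT (-2.13 ± 0.23, adjusted p = 5.07e-05). Rarb, a retinoic acid receptor, was lower as well (-1.93 ± 0.43, adjusted p = 0.00402). Cyp26a1, which degrades retinoic acid, was higher at day 16 (0.93 ± 0.18, adjusted p = 0.00165). At day 8 Cyp26a1 did not pass (-0.02 ± 0.18). Of 6 tested genes of axial extension, T, the Brachyury factor of the primitive streak and tail bud, was higher at day 8 (1.53 ± 0.20) and day 16 (2.83 ± 0.20), with 1 higher and 2 lower at day 8 and 3 and 0 at day 16.

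Among 29 tested Polycomb genes, 14 were higher and 8 lower in 1343KO at day 8, and 14 and 9 at day 16, with medians of 0.55 and 0.37 on the log2 scale, where all genes had 0.06 and 0.07 and 42.8% and 52.6% of them were called. Phc1, a subunit of Polycomb repressive complex 1, was at 79.8 and 89.7 FPKM in 1343KO at day 16, against 9.65 and 11.9 FPKM in WT (2.87 ± 0.11, adjusted p = 7.95e-08). Suz12, a core subunit of the complex that methylates histone H3 at K27, was higher too (1.30 ± 0.08), and Rbbp7 was lower (-1.01 ± 0.06). Of 12 tested trithorax and H3K27 demethylase genes, 6 were higher and 1 lower at day 8, and 8 and 1 at day 16. The 1 lower at both days was Kdm6b, a demethylase that removes this Polycomb mark, at 11.6 and 10.7 FPKM in 1343KO at day 16, against 23.9 and 25.3 FPKM in WT (-1.08 ± 0.11, adjusted p = 4.04e-05).

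Markers of cell types also differed between the lines at days 8 and 16, and their part in the Hox differences was not tested. Some differed already at day 0, where no Hox gene was called and 3.71% of all genes tested were. Counts of called markers stand beside 23.3% of all genes tested higher and 19.6% lower at day 8. At day 16 these shares were 28.5% and 24.1%. At day 8 the 8 ES cell markers summed to 2808 and 2761 FPKM in 1343KO, against 181 and 214 FPKM in WT. They summed to 2282 and 2288 FPKM in 1343KO at day 16, against 128 and 137 FPKM in WT, and 8 and 7 of the 8 were higher in 1343KO at days 8 and 16. Lateral mesoderm and mesenchyme markers summed to 32.6 and 26.6 FPKM in 1343KO at day 8, against 208.7 and 221.4 FPKM in WT. Their sums came to 48.9 and 50.5 FPKM in 1343KO at day 16, against 182.7 and 189.2 FPKM in WT, with 5 and 9 of 10 tested lower. The 7 fibroblast markers summed to 53.2 and 48.2 FPKM in 1343KO at day 16, against 3826 and 3944 FPKM in WT, and all 7 were lower at days 8 and 16. At day 0 only Pdgfra of this list was called, lower in 1343KO (-2.32 ± 0.15). Extraembryonic endoderm markers summed to 184.9 and 168.6 FPKM in 1343KO at day 8, against 2528 and 2572 FPKM in WT. At day 0 their sums were 95.2 and 77.3 FPKM in 1343KO, against 168.5 and 184.5 FPKM in WT. Dab2 (-2.97 ± 0.12), Cubn (-2.75 ± 0.12) and Amn (-1.58 ± 0.35) were among those already lower in 1343KO at day 0. Afp, Ttr, Apoa1, Apob and Rbp4 did not pass there, and none of the list was called higher. Macrophage markers summed to 8.67 and 8.55 FPKM in 1343KO at day 16, against 142.8 and 142.6 FPKM in WT, with Fcgr1 at 0 in all 4 1343KO libraries of days 8 and 16. Of 13 tested blood progenitor markers 9 and 7 were lower and 2 and 2 higher in 1343KO at days 8 and 16.

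Markers of the forebrain and midbrain, where Hox genes are normally silent, went the other way. They summed to 79.8 and 90.0 FPKM in 1343KO at day 16, against 7.66 and 11.3 FPKM in WT, and 2 and 3 of 6 tested were higher at days 8 and 16. Most of the sum was Otx2, a factor of the epiblast and the anterior brain, at 66.6 and 72.6 FPKM in 1343KO, against 3.32 and 5.59 FPKM in WT (3.72 ± 0.23, adjusted p = 1.54e-06). Of 6 tested hindbrain and spinal cord markers 3 were higher and 2 lower in 1343KO at day 8, and 4 and 2 at day 16. More of this list was thus higher than lower, as was the case over all genes. Of all genes tested, 23.3% were higher and 19.6% lower at day 8, and 28.5% and 24.1% at day 16. Isl1, a factor of motor neurons, was among the lower ones at both days (-1.61 ± 0.22 and -0.69 ± 0.22). The extraembryonic endoderm, macrophage and paraxial mesoderm lists had 9 of 10, 3 of 6 and 0 of 3 tested genes lower at day 8, and 9, 6 and 1 at day 16. For the paraxial list 1 and 2 of the 3 were higher in 1343KO, with Tcf15, a factor of somites, at 1.49 ± 0.12 and 1.95 ± 0.12 on the log2 scale. Tcf15 was already expressed in ES cells and fell by 5.06 ± 0.12 to day 8 in WT. The paraxial list summed to 89.0 and 99.5 FPKM in 1343KO and 163.6 and 163.1 FPKM in WT at day 0. At day 8 its sums were 12.9 and 15.8 FPKM in 1343KO and 6.33 and 7.81 FPKM in WT.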

How the data were processed

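Gene expression was read from the deposited FPKM table, which the authors made with Cufflinks 2.1.1 on GRCm38 (mm10) per the submitters' processing notes; for the aligner, annotation and strand setting, nothing is given in the sources used here. All 12 libraries, 2 per group, were used, and no label says that replicates came from separate cultures, so the p-values rest on a spread that may be technical. Genes at 1 FPKM or more in at least 2 libraries were kept, log2(FPKM + 1) was computed, and limma 3.58.1 in R 4.3.3 (trended variance, 1 mean per group, 6 residual degrees of freedom) gave p-values adjusted by Benjamini-Hochberg over all 16289 tested genes, in every comparison. An exact permutation test of 2 against 2 libraries cannot go below p = 0.333 and was not used. Summaries and plots used Python 3.11.15.

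On data simulated for WT day 8 against day 0 over 16289 genes, the same fit recovered 53% of 2-fold and 91% of 4-fold changes, and 5.88% of its calls were false. The changes were planted in 200 genes, all with a mean log2(FPKM + 1) above 1. Many Hox genes lie below that, so these rates do not describe them. The real comparison also had far more calls, 51.3% of all genes tested. Every Hox gene is in the counts, sums and medians, but the individual values of 1 tested Hox gene and 1 list gene are not reported here; fuller statistics go to the 3 called Hox genes with the largest change in a comparison, and list genes are named by smallest p. Some Hox and list genes shown in full lie outside that rule and were chosen after their values were seen. The Hox genes and the 17 gene lists were chosen with earlier results of these data known. Alternatives were a pseudocount of 0.1, no filter, median-of-ratios and TPM scaling, a replicate block, each library left out, and the 4 libraries of a day alone. Coordinates are 1-based.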

Additional observations from a re-analysis of the deposited data

Results flagged for a closer look

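The change over time differed between 1343KO and WT in the Hox genes given here, by the interaction term of the limma fit (adjusted p under 0.05), and each difference was below 0. Values are the log2 change in 1343KO minus that in WT. For the change from day 0 to day 8, the lines differed at Hoxc8 by -3.4, Hoxb8 by -2.93, Hoxb2 by -2.84, Hoxb4 by -2.36, Hoxb6 by -2.26, Hoxc6 by -2.18, Hoxb3 by -2.07, Hoxd9 by -1.81, Hoxd8 by -1.75, Hoxb7 by -1.61, Hoxb5 by -1.59 and Hoxd1 by -1.36. For the change from day 0 to day 16, the lines differed at Hoxc8 by -3.8, Hoxb8 by -3.3, Hoxc6 by -2.86, Hoxc4 by -2.25, Hoxc10 by -2.08, Hoxa13 by -1.94, Hoxd13 by -1.8, Hoxb2 by -1.69, Hoxc9 by -1.63, Hoxd8 by -1.56, Hoxd10 by -1.47, Hoxb3 by -1.45, Hoxb7 by -1.43, Hoxd11 by -1.24, Hoxb4 by -1.16, Hoxd9 by -1.1, Hoxa5 by -1.05 and Hoxb5 by -1.01. Both sets use the same day 0 libraries, and both values of Hoxb8 rest in part on 1343KO day 0 replicate 2 (2.74 FPKM, where replicate 1 had 0.322). Over all Hox genes 7 of 13 calls at day 8 and 7 of 19 at day 16 held under every alternative, and most of these genes passed the filter only through the WT libraries of days 8 and 16. With 2 libraries per group no single library could be set apart from its group.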

How the results depend on the processing

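No Hox call reversed under any alternative run, and of 2182 single-gene values 1955 stayed on their side of the threshold while 227 calls were lost. Counts of called Hox genes stayed within 1.5 times under no filter, both scalings, the replicate block and the 4 libraries of a day alone. With a pseudocount of 0.1, which stretches low values, the counts were 3 for WT day 16 against day 8 (11 with a pseudocount of 1), 7 for 1343KO day 16 against day 0 (4), and 7 and 8 for the differences between lines in the change to days 8 and 16 (13 and 19); the cause was not tested. Leaving out each library in turn gave 0 to 2 for 1343KO against WT at day 0, 6 to 11 for WT day 16 against day 8, 0 to 3 for 1343KO day 8 against day 0, 1 to 5 for 1343KO day 16 against day 0, and 10 to 17 for the difference in the change to day 16; fewer libraries give each mean more error. Same-numbered libraries did not deviate together over all tested genes (15 pairs, correlations of -0.0358 to 0.036), so no shift shared by replicate number was seen. These correlations cannot tell whether same-numbered libraries came from the same culture or run, which no label says. With the replicate block the counts for 1343KO against WT were 0, 18 and 21 at days 0, 8 and 16. At 4.42 to 20.8 fragments per FPKM, values of Hox genes under 1 FPKM rest on few fragments.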
